A study of Homo sapiens with 12 samples.

Results

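The genes described here are those named METTL, TRMT or NSUN with a number: families of methyltransferases that act on RNA and protein, most of them using S-adenosylmethionine as the methyl donor. They were chosen by symbol in the array annotation. They were then filtered on level, a log2 signal of at least 5 on at least 3 of 12 arrays. No gene was picked by its own response, but the group was chosen with earlier results of these data known. The annotation holds 48 such symbols, 45 of them with a probe set that reports no other gene, and 42 of those passed the level filter, out of 18621 genes tested. METTL16, METTL2A and NSUN5P2 are reported only by probe sets that also report another gene, and METTL14-DT, METTL21C and NSUN7 lay under the filter. Just outside it, METTL14-DT reached log2 5 on 1 array (mean 4.26 over 12 arrays), while NSUN7 (4.52) and METTL21C (3.58) reached it on 0 arrays. Just inside it, METTL21EP, a pseudogene, reached it on the 6 arrays of one experiment (control mean 5.36 ± 0.154, SD, n = 3) and on none of the other (4.59 ± 0.291, SD, n = 3). The other 41 genes reached it on all 12 arrays.

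The cells were A549, an established line of human lung adenocarcinoma epithelium, transfected with siRNA at 50 nM and lysed 3 days later. Of the 12 arrays, 3 carried RNA from cells given FAM60A siRNA and 3 from cells given non-targeting siRNA alongside them; 3 carried RNA from cells given SDS3 siRNA and 3 from a separate set given non-targeting siRNA. The protocol in the labels names 1 FAM60A siRNA and 1 non-targeting siRNA and no siRNA for SDS3, so the SDS3 reagent is not described here. Cells were plated in triplicate, and p-values measure the spread between such wells. In bulk RNA, a change in each cell and a change in the mix of cells cannot be told apart. FAM60A (now SINHCAF) and SDS3 (SUDS3) are both subunits of the SIN3 histone deacetylase complex, which removes acetyl groups from histones and is known mainly for repressing transcription.

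Methyl groups on RNA set how it folds, how long it lasts and how it is read. METTL3 with METTL14 places N6-methyladenosine on messenger RNA; most TRMT enzymes and several METTL enzymes modify transfer RNA in the cytosol or the mitochondria; NSUN enzymes place 5-methylcytosine on transfer and ribosomal RNA; and a branch of the METTL family methylates proteins such as chaperones and elongation factors. TRMT112 is a small activating subunit that several of these enzymes need.

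SINHCAF signal was left at 15.5% of control in FAM60A siRNA cells (log2 change -2.69 ± 0.0778, SE; adjusted p = 7.76e-09, limma) and SUDS3 signal at 33.4% in SDS3 siRNA cells (-1.58 ± 0.0777; 3.06e-06). SUDS3 did not pass in the FAM60A experiment (0.04, adjusted p = 0.698), whereas SINHCAF rose in SDS3 siRNA cells by 0.35 (adjusted p = 0.00291). The array medians were 186 to 192.6 in the FAM60A experiment and 96.82 to 98.32 in the SDS3 experiment, so levels are compared within an experiment only. The epithelial and A549 markers KRT8, KRT18, ALDH1A1, AKR1C1 and AKR1B10 were bright on every array (lowest 13.85), with KRT19, EPCAM and CDH1 at 6.91 to 10.75. The leukocyte gene PTPRC reached log2 5 on 1 of 12 arrays, but probe sets of CD3E, PECAM1, VWF, PDGFRA, DCN and LUM read between 5.965 and 8.69 on all 12, and CDH5 reached 5 on 6; these are signals of single probe sets and their part in the results was not tested. CD68 was not analysed here.

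Across the 42 genes, transcripts fell more often than they rose in both knockdowns. The group was chosen with earlier results of these data known, so the counts below describe it and do not test it. In FAM60A siRNA cells 14 fell and 2 rose, against 17.6% lower and 19.2% higher among all 18621 genes tested (limma, Benjamini-Hochberg adjusted p under 0.05). The median change there was -0.11, against -0.02 for all genes, and 33 of the 42 lay below 0, against 55.6% of all genes. In SDS3 siRNA cells 15 fell and 1 rose, against 18.8% lower and 15.8% higher among all genes. The median change there was -0.11, against 0.01, and 35 of the 42 lay below 0, against 48.5% of all genes. The 3 knockdown arrays lay below all 3 controls for 19 genes and above them for 3 in the FAM60A experiment (24.4% and 23.7% of all genes), and for 23 and 3 in the SDS3 experiment (25.2% and 22.4% of all genes). The changes were small. The largest fall was 0.59 on the log2 scale in FAM60A siRNA cells (TRMT13, 66.3% of control left) and 0.85 in SDS3 siRNA cells (NSUN4, 55.4% left), and the largest rises were 0.37 and 0.39 (TRMT61B in both).

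**Figure D1:**
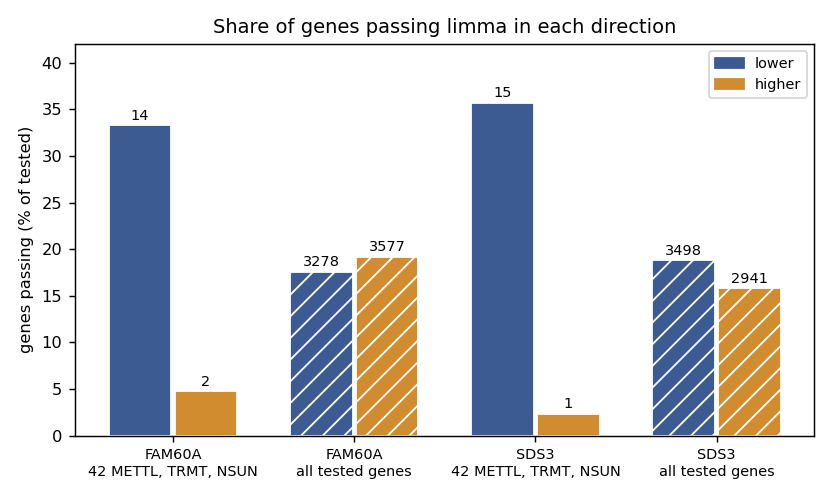
Bars show the percentage of genes that passed limma (adjusted p under 0.05) as lower (blue) or higher (orange) than the matching controls, for the 42 METTL, TRMT and NSUN genes (plain) and all 18621 tested genes (hatched); the numbers above the bars are gene counts. Among the 42 genes, lower calls number 14 and 15 and higher calls 2 and 1, while all genes split nearly evenly.

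The genes that fell overlapped between the knockdowns. Of the 42, 10 fell in both (METTL5, METTL8, METTL21A, METTL23, METTL25, NSUN4, TRMT5, TRMT10A, TRMT11 and TRMT13), which is 71.4% of those lower after FAM60A siRNA and 66.7% of those lower after SDS3 siRNA; 8.76% of all genes fell in both, 49.8% and 46.7% of the respective lower lists. Among the 10 genes, METTL5 and TRMT11 lost their SDS3 call in most fits that each left out 1 array. METTL23, NSUN4 and TRMT5 lost their FAM60A call in most such fits. TRMT61B rose in both, as did 9.33% of all genes. The 4 that passed as lower only in the FAM60A experiment were METTL3, NSUN2, TRMT1L and TRMT2B, and the 5 only in the SDS3 experiment were METTL4, METTL13, METTL18, METTL25B and METTL27; METTL26 passed as higher only in the FAM60A experiment, and 21 genes passed in neither. Passing in 1 experiment alone does not show that the responses differ, which is tested further on. Without the first FAM60A control array 9 genes instead of 14 passed as lower there, against 14.7% of all genes. These directions are relative to the bulk of transcripts. When arrays were scaled to hybridization spike-ins, the median of all genes moved by 0.0592 (FAM60A) and -0.0779 (SDS3) and 23 and 38 of the 42 lay below 0, with 7 and 17 passing as lower and 2 and 1 as higher. Of all genes, 9.2% (FAM60A) and 23.4% (SDS3) then passed as lower, and 19% and 9% as higher. Scaling to poly-A spike-ins, chosen after seeing the data, moved that median by -0.101 and -0.323, with 38 and 41 of the 42 below 0, 8 and 35 passing as lower and 0 as higher. Under poly-A scaling 12.1% (FAM60A) and 49% (SDS3) of all genes passed as lower, and 7.24% and 2.67% as higher.

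**Figure D2:**
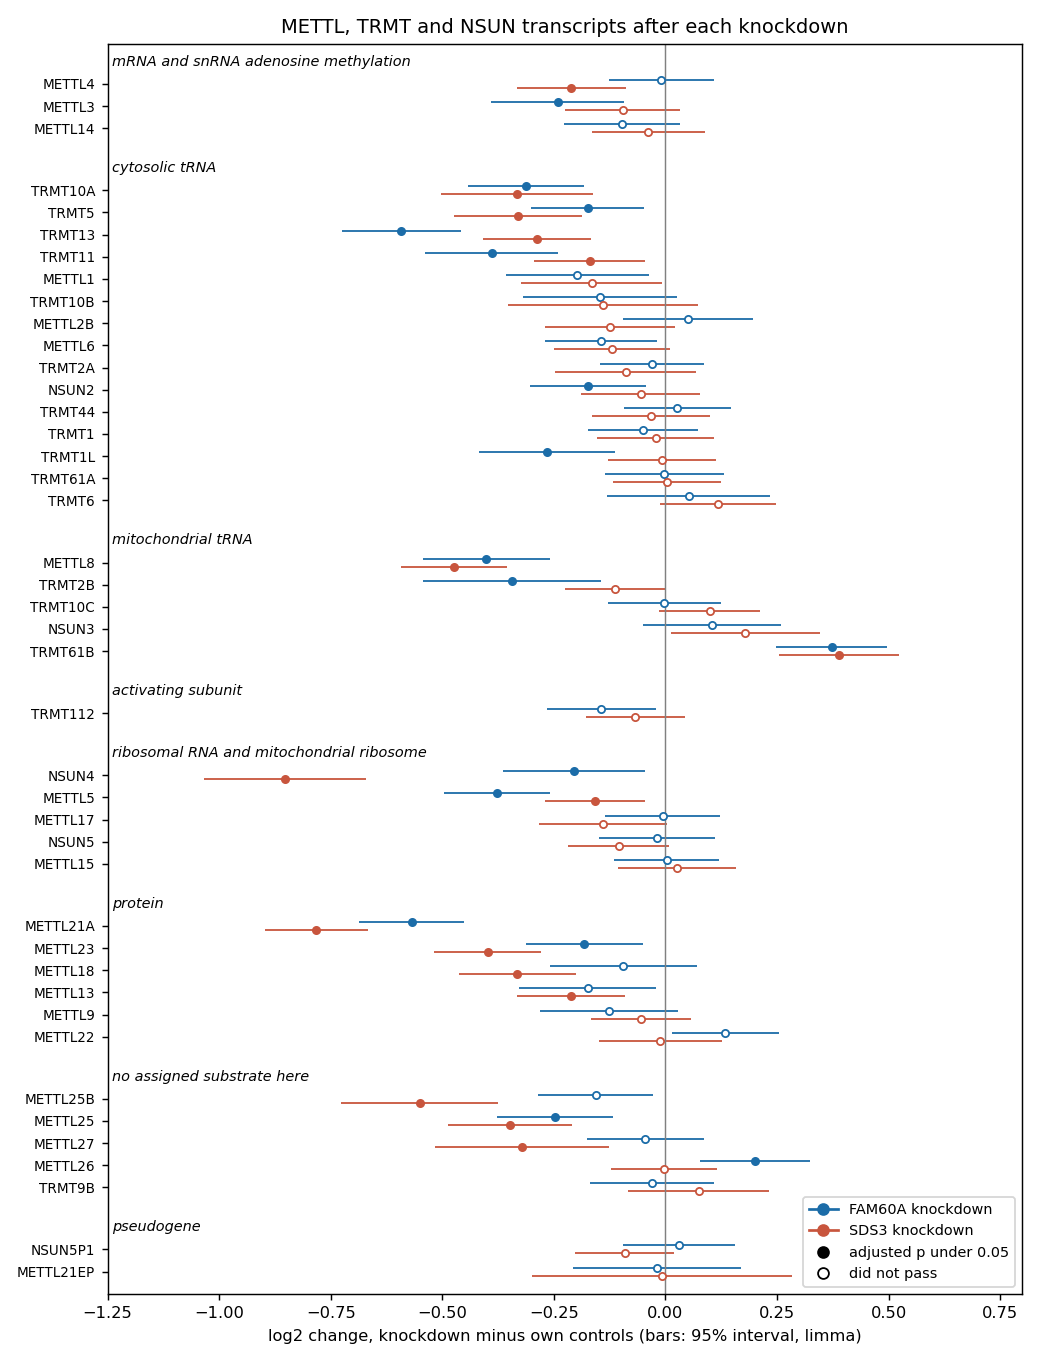
Each point is the log2 change of 1 gene (knockdown mean minus the mean of its own controls, 3 arrays each) with its 95% interval from limma, in FAM60A (blue) and SDS3 (red) siRNA cells; filled points passed an adjusted p of 0.05, and genes are grouped by the role of the enzyme. Most points lie left of 0, NSUN4 and METTL21A lie farthest left in the SDS3 experiment, TRMT13 and METTL21A in the FAM60A experiment, and TRMT61B lies right of 0 in both.

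Of the 3 genes for adenosine methylation of messenger and small nuclear RNA, METTL3 fell in FAM60A siRNA cells and METTL4 in SDS3 siRNA cells. METTL3, the catalytic subunit of the N6-methyladenosine writer, read 11.81, 11.84 and 11.63 on the FAM60A control arrays and 11.56, 11.52 and 11.47 on the knockdown arrays. Every knockdown array lay below every control, a change of -0.24 ± 0.0673 (SE; adjusted p = 0.0157, limma). The call was lost without FAM60A control 1, control 2 or knockdown 3 (change -0.20 to -0.22, adjusted p 0.0541 to 0.0605). METTL3 in the SDS3 experiment read 11.10, 11.01 and 10.97 in controls and 10.89, 10.93 and 10.98 after knockdown; the groups overlapped, and the change of -0.10 did not pass (95% interval -0.22 to 0.03, adjusted p = 0.236). METTL14, its RNA-binding partner, read 8.97, 8.82 and 8.88 in FAM60A controls and 8.77, 8.80 and 8.81 after knockdown, and in the SDS3 experiment 8.35, 8.31 and 8.37 against 8.31, 8.23 and 8.37. METTL14 passed in neither experiment on this probe set, with intervals of -0.23 to 0.03 and -0.17 to 0.09, although its FAM60A knockdown arrays all lay below the controls. METTL4, which methylates the U2 small nuclear RNA, stood at -0.01 in the FAM60A experiment and fell by 0.21 ± 0.0536 in SDS3 siRNA cells (control mean 7.84 ± 0.0303, knockdown 7.63 ± 0.0617, SD, n = 3; adjusted p = 0.015). That call was lost without SDS3 control 3 or knockdown 2 (adjusted p 0.0519 to 0.0537).

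Among 15 genes for cytosolic transfer RNA, 6 fell and 0 rose in FAM60A siRNA cells, and 4 fell and 0 rose in SDS3 siRNA cells. Those falls are 40% and 26.7% of the class, against 17.6% and 18.8% of all genes. TRMT13, which 2′-O-methylates transfer RNA in the acceptor stem, read 9.29, 9.27 and 9.37 in FAM60A controls and 8.64, 8.76 and 8.75 after knockdown. In the SDS3 experiment it read 8.36, 8.36 and 8.35 in controls and 8.01, 8.06 and 8.14 after knockdown. Its arrays did not overlap in either experiment, and the changes were -0.59 ± 0.0605 (SE; adjusted p = 2.37e-05) and -0.29 ± 0.0529 (adjusted p = 0.00301). TRMT11, a guanosine methyltransferase that works with TRMT112, read 10.86, 10.66 and 10.76 against 10.42, 10.41 and 10.28 in the FAM60A experiment (-0.39 ± 0.0675, adjusted p = 0.000929) and 9.92, 10.01 and 9.98 against 9.73, 9.83 and 9.84 in the SDS3 experiment (-0.17 ± 0.0548, adjusted p = 0.0414). Controls lay above knockdowns on all arrays of both experiments. The SDS3 call of TRMT11 was lost without SDS3 control 2 or 3 or knockdown 1 or 2 (adjusted p 0.0657 to 0.142). TRMT10A, which methylates guanosine 9 of transfer RNA and whose loss is linked to diabetes with microcephaly, fell by 0.31 ± 0.0587 and 0.33 ± 0.0746 (adjusted p = 0.00156 and 0.00814), nearly the same in both.

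TRMT5, the enzyme for guanosine methylation beside the anticodon, fell by 0.17 ± 0.0573 in FAM60A siRNA cells (adjusted p = 0.0346) and by 0.33 ± 0.0628 in SDS3 siRNA cells (adjusted p = 0.00365). Its FAM60A call was lost without control 1 or any of the 3 knockdown arrays (adjusted p 0.051 to 0.141). TRMT1L, a relative of TRMT1, read 9.66, 9.51 and 9.64 in FAM60A controls and 9.45, 9.27 and 9.30 after knockdown, with no overlap (-0.27 ± 0.0687, adjusted p = 0.0107). TRMT1L in the SDS3 experiment read 8.44, 8.36 and 8.38 in controls and 8.35, 8.36 and 8.44 after knockdown, with overlapping groups and a change of -0.01 (95% interval -0.13 to 0.11). NSUN2, the main 5-methylcytosine enzyme of cytosolic transfer RNA, read 11.12, 11.09 and 11.07 against 10.98, 10.84 and 10.94 in the FAM60A experiment, with every knockdown array lower (-0.17 ± 0.0585, adjusted p = 0.038). The call held in 1 of 6 fits that each left out an array, the exception being knockdown 1, and adjusted p rose to between 0.0622 and 0.142 in the others. NSUN2 in the SDS3 experiment read 10.94, 10.89 and 10.85 against 10.78, 10.81 and 10.93, which overlapped and did not pass (-0.06, 95% interval -0.19 to 0.08).

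METTL1, the 7-methylguanosine enzyme of transfer RNA, read 10.08, 10.16 and 9.97 in FAM60A controls and 10.00, 9.83 and 9.79 after knockdown, and 9.57, 9.65 and 9.43 against 9.35, 9.46 and 9.34 in the SDS3 experiment. The groups overlapped by 1 array in each, and the changes of -0.20 (95% interval -0.36 to -0.04, adjusted p = 0.0548) and -0.17 (-0.32 to -0.01, adjusted p = 0.0993) did not pass. The remaining genes of this class also passed in neither experiment. METTL6, a 3-methylcytidine enzyme, stood at -0.15 and -0.12 with all knockdown arrays below controls in both, and TRMT10B at -0.15 and -0.14 with overlapping groups. METTL2B (0.05 and -0.12), TRMT1 (-0.05 and -0.02), TRMT2A (-0.03 and -0.09), TRMT44 (0.03 and -0.03) and TRMT61A (0.00 and 0.00 to 2 decimals) lay close to 0. TRMT6, the partner of TRMT61A in the 1-methyladenosine enzyme, stood at 0.05 and 0.12.

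The 5 genes for mitochondrial transfer RNA moved in both directions. TRMT61B, which places 1-methyladenosine on mitochondrial transfer RNA, was the single gene of the 42 to rise in both experiments. It read 10.65, 10.59 and 10.62 in FAM60A controls against 11.05, 10.94 and 10.99 after knockdown, and 9.92, 9.79 and 9.88 against 10.18, 10.28 and 10.30 in the SDS3 experiment. All 6 knockdown arrays lay above their controls, with changes of 0.37 ± 0.0562 (SE; adjusted p = 0.000359) and 0.39 ± 0.0593 (adjusted p = 0.00108), about 130% and 131% of control. With arrays scaled to poly-A spike-ins the rises were 0.27 and 0.07 and did not pass (adjusted p = 0.158 and 0.681).

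METTL8, which places 3-methylcytidine on mitochondrial transfer RNA, read 10.54, 10.34 and 10.38 in FAM60A controls and 10.03, 9.99 and 10.04 after knockdown. METTL8 in the SDS3 experiment read 9.50, 9.58 and 9.57 in controls and 9.11, 9.03 and 9.08 after knockdown. The groups were fully apart in both, with falls of 0.40 ± 0.0642 (adjusted p = 0.00054) and 0.47 ± 0.0519 (adjusted p = 0.000172). TRMT2B, the mitochondrial 5-methyluridine enzyme, fell by 0.34 ± 0.0899 in FAM60A siRNA cells (adjusted p = 0.0114) and stood at -0.11 in SDS3 siRNA cells (adjusted p = 0.118), where its knockdown arrays also lay below controls. NSUN3, which modifies the wobble base of mitochondrial methionine transfer RNA, stood at 0.10 and 0.18, and TRMT10C, a subunit of mitochondrial RNase P, at 0.00 and 0.10; none of these passed.

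TRMT112, the activating subunit, moved little. It read 13.55, 13.66 and 13.56 in FAM60A controls and 13.45, 13.45 and 13.44 after knockdown, and 13.44, 13.46 and 13.41 against 13.40, 13.36 and 13.35 in the SDS3 experiment. All knockdown arrays lay below their controls, but the changes of -0.14 (95% interval -0.27 to -0.02, adjusted p = 0.0655) and -0.07 (-0.18 to 0.04, adjusted p = 0.331) did not pass.

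METTL5, which places N6-methyladenosine on 18S ribosomal RNA, read 12.77, 12.80 and 12.78 in FAM60A controls and 12.41, 12.44 and 12.36 after knockdown (-0.38 ± 0.0535, SE; adjusted p = 0.000238). In the SDS3 experiment it read 11.93, 11.94 and 11.95 in controls and 11.80, 11.81 and 11.73 after knockdown (-0.16 ± 0.0491, adjusted p = 0.0354). Groups were apart in both experiments, and the SDS3 call was lost whichever of the 6 arrays was left out (change -0.135 to -0.172, adjusted p 0.0598 to 0.0969). NSUN4, a 5-methylcytosine enzyme needed for assembly of the mitochondrial ribosome, showed the largest fall of all 42 genes. Its SDS3 controls read 8.45, 8.55 and 8.30 and the knockdown arrays 7.66, 7.46 and 7.62, with every knockdown array well below every control (-0.85 ± 0.0794, adjusted p = 6.98e-05). In the FAM60A experiment NSUN4 read 9.33, 9.33 and 9.09 in controls and 9.03, 9.09 and 9.03 after knockdown. There the nearest arrays almost touched, the fall of 0.20 ± 0.0719 passed narrowly (adjusted p = 0.0459), and the call held only in the fit without control 3, with adjusted p of 0.0723 to 0.155 in the other 5. METTL15, which acts on mitochondrial 12S ribosomal RNA, stood at 0.00 and 0.03, METTL17, a mitochondrial ribosome assembly factor, at -0.01 and -0.14, and NSUN5, which acts on 28S ribosomal RNA, at -0.02 and -0.11. None of these 3 passed.

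**Figure D3:**
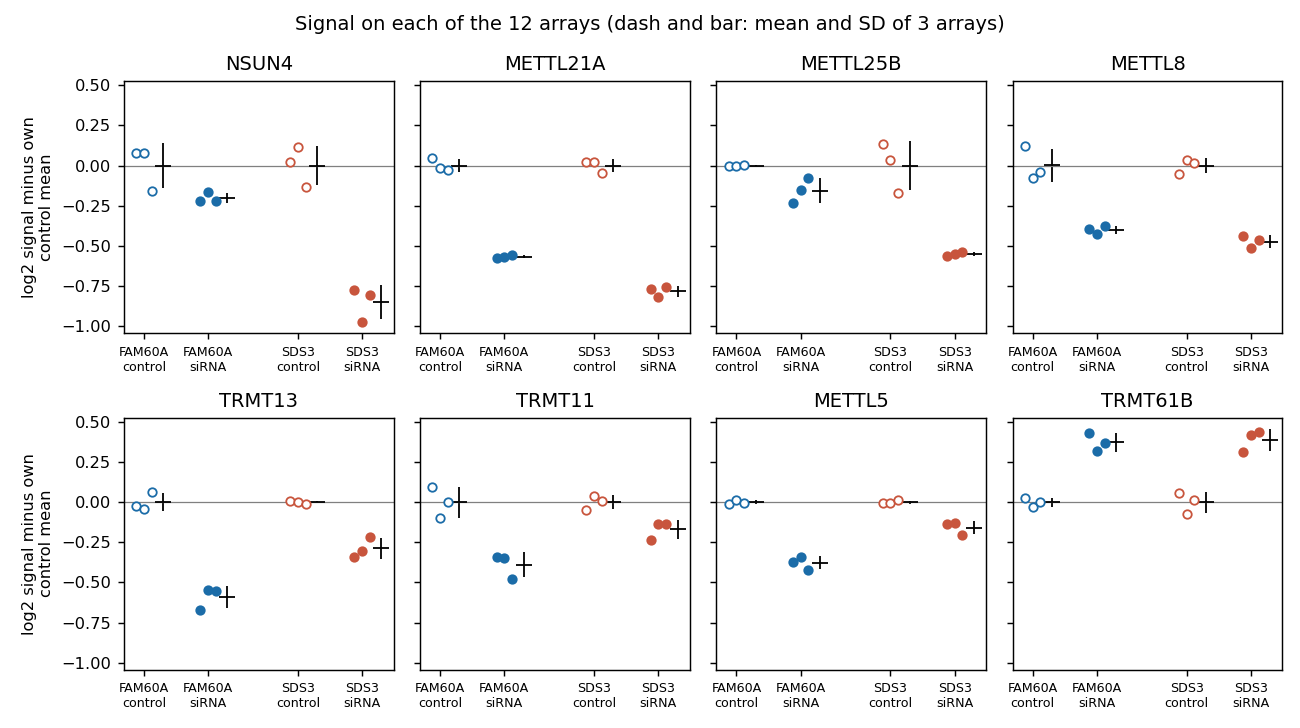
Points show the log2 signal of 8 genes on each of the 12 arrays, minus the mean of the matching 3 controls, for FAM60A (blue) and SDS3 (red) experiments, with open points for controls and filled points for siRNA; the dash and bar give the mean and SD of 3 arrays. NSUN4 and METTL25B fall mainly in the SDS3 experiment, TRMT13, TRMT11 and METTL5 more in the FAM60A experiment, METTL21A and METTL8 in both, and TRMT61B rises in both.

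Of the 6 genes for protein methylation, 2 fell in FAM60A siRNA cells and 4 in SDS3 siRNA cells (17.6% and 18.8% of all genes), and 0 rose. METTL21A, which methylates HSP70 chaperones, read 12.15, 12.10 and 12.08 in FAM60A controls and 11.53, 11.54 and 11.55 after knockdown. In the SDS3 experiment it read 11.14, 11.14 and 11.07 in controls and 10.34, 10.29 and 10.36 after knockdown. Groups were widely apart in both, with falls of 0.57 ± 0.0533 (SE; adjusted p = 1.26e-05) and 0.78 ± 0.0507 (adjusted p = 1.02e-05), leaving 67.4% and 58.1% of control. METTL23, an arginine methyltransferase of histones, read 13.16, 13.29 and 13.15 against 13.03, 13.04 and 12.99 in the FAM60A experiment and 12.46, 12.43 and 12.37 against 12.004, 12.07 and 11.99 in the SDS3 experiment. All knockdown arrays were lower, with falls of 0.18 ± 0.0594 (adjusted p = 0.0334) and 0.40 ± 0.0522 (adjusted p = 0.000468). The FAM60A call of METTL23 held only in the fit without control 3, with adjusted p of 0.0544 to 0.0995 in the other 5.

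METTL18, a histidine methyltransferase of a ribosomal protein, fell by 0.33 ± 0.057 in SDS3 siRNA cells (adjusted p = 0.00209) and stood at -0.09 in FAM60A siRNA cells. METTL13, which methylates elongation factor eEF1A, fell by 0.21 ± 0.0532 in SDS3 siRNA cells (adjusted p = 0.0143, and 0.0543 without SDS3 knockdown 1) and stood at -0.17 in FAM60A siRNA cells (adjusted p = 0.0739), with no overlap between arrays in either. METTL9, another histidine methyltransferase, stood at -0.13 and -0.06, and METTL22, a lysine methyltransferase, at 0.13 and -0.01; neither passed, although METTL22 knockdown arrays all lay above the FAM60A controls.

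METTL25B had the third largest fall in SDS3 siRNA cells and has no substrate assigned here. It read 8.49, 8.39 and 8.19 in SDS3 controls and 7.79, 7.81 and 7.82 after knockdown, with no overlap (-0.55 ± 0.0767, SE; adjusted p = 0.000656). In the FAM60A experiment METTL25B read 9.07 on all 3 controls and 8.83, 8.92 and 8.99 after knockdown, again without overlap, but the change of -0.16 did not pass (95% interval -0.28 to -0.03, adjusted p = 0.0584). Its relative METTL25 fell by 0.25 ± 0.0587 and 0.35 ± 0.0611 (adjusted p = 0.00658 and 0.00234). METTL27 stood at -0.05 in FAM60A siRNA cells and fell by 0.32 ± 0.0855 in SDS3 siRNA cells (adjusted p = 0.0186), a call lost without SDS3 control 2, knockdown 2 or knockdown 3 (adjusted p 0.0549 to 0.0608). METTL26 rose by 0.20 ± 0.056 in FAM60A siRNA cells (adjusted p = 0.0159), a call lost without control 1 or knockdown 1 (adjusted p 0.0538 to 0.0661) and under poly-A scaling (0.10), and stood at 0.00 in SDS3 siRNA cells. TRMT9B (-0.03 and 0.07), METTL21EP (-0.02 and -0.01) and NSUN5P1, a pseudogene close in sequence to NSUN5 (0.03 and -0.09), passed in neither.

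The change after SDS3 siRNA was then compared with the change after FAM60A siRNA within 1 fit of all 12 arrays, since the 2 experiments used separate controls. Each target was knocked down in 1 experiment only. Array medians (186 to 192.6 for FAM60A, 96.82 to 98.32 for SDS3) and target signal left (15.5% and 33.4%) differed between the experiments. A difference between knockdowns therefore cannot be told apart from a difference between experiments. Of the 42 genes, 4 had a lower value after SDS3 siRNA (NSUN4, METTL25B, METTL21A and METTL4) and 3 a higher one (TRMT13, TRMT1L and METTL5), against 15.3% lower and 9.99% higher among all genes, so these genes differed no more often than the background. NSUN4 differed most, at -0.65 ± 0.112 (SE; adjusted p = 0.000708), followed by METTL25B at -0.40 ± 0.0972 (adjusted p = 0.00806). The change after SDS3 siRNA was higher for TRMT13 by 0.30 ± 0.0783 (adjusted p = 0.0106), for TRMT1L by 0.26 ± 0.088 (adjusted p = 0.0443) and for METTL5 by 0.22 ± 0.0668 (adjusted p = 0.0262). METTL21A differed by -0.21 ± 0.068 (adjusted p = 0.0318) and METTL4 by -0.20 ± 0.0707 (adjusted p = 0.0499). On further probe sets above the level filter, fitted over all probe sets, the difference passed for NSUN4 (-0.70 and -0.66). For METTL21A 1 passed (-0.52) and 1 did not (-0.21). Those of TRMT1L (0.03 and 0.08), METTL5 (0.06) and METTL4 (-0.08) did not pass. The calls of NSUN4, METTL25B and TRMT13 held in all 12 fits that each left out an array. METTL5 lost its call in 4 of these fits, METTL21A in 8, TRMT1L in 9 and METTL4 in 11 (largest adjusted p 0.121). With the 12 arrays quantile normalized together, METTL25B and METTL4 lost their calls, and METTL23 and TRMT11 passed. Under hybridization scaling 0 genes were higher and 8 lower, and under poly-A scaling 0 and 2, where NSUN4 and METTL25B passed at -0.87 and -0.62. Of all genes, 2.88% were higher and 20.2% lower under hybridization scaling, and 1.03% and 12.6% under poly-A scaling. METTL3 (0.15, 95% interval -0.04 to 0.34), METTL8 (-0.07, -0.25 to 0.10), TRMT61B (0.02, -0.15 to 0.18) and TRMT10A (-0.02, -0.23 to 0.18) did not pass.

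**Figure D4:**
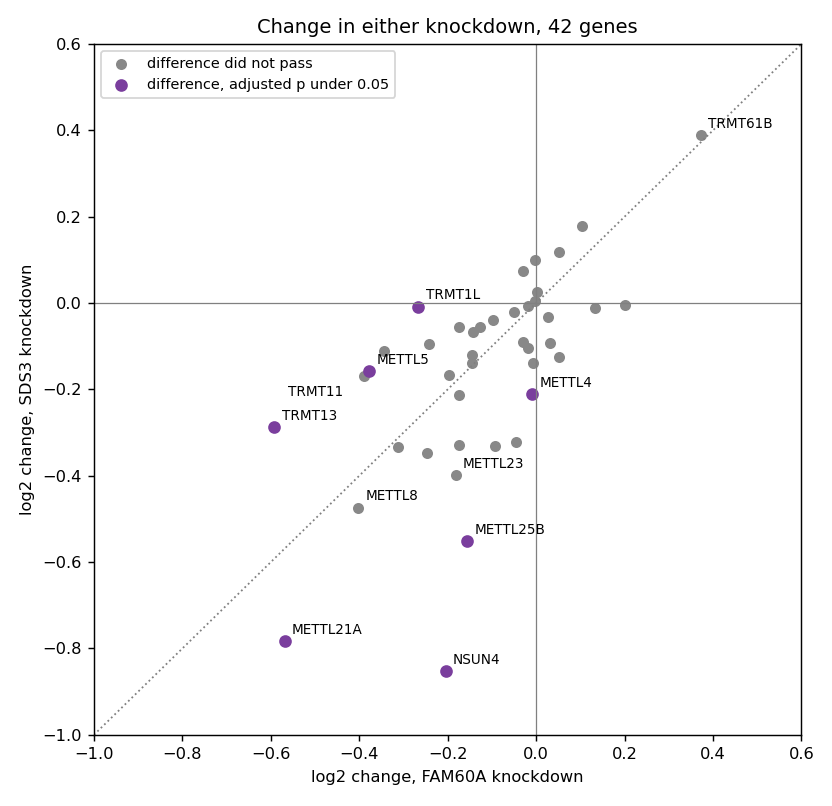
Each point is 1 of the 42 genes, with its log2 change in FAM60A siRNA cells on the horizontal axis and in SDS3 siRNA cells on the vertical axis; purple points differed between the knockdowns (adjusted p under 0.05) and the dotted line marks equal change. NSUN4 (-0.20 and -0.85) and METTL25B (-0.16 and -0.55) lie far below the line, TRMT13 (-0.59 and -0.29) above it, and METTL8 and TRMT61B close to it.

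Promoter sequence is shown for the pair with the largest differences, NSUN4 and METTL25B, for TRMT13, whose fall was larger after FAM60A siRNA, and for TRMT61B, which rose in both. Windows run from 250 bases before to 50 after a RefSeq transcript start (GRCh38.p14), 5′ to 3′ along the gene: NSUN4 chr1:46340557-46340856 (+ strand, the first of 2 listed starts), METTL25B chr1:156728219-156728518 (+ strand), TRMT13 chr1:100132913-100133212 (+ strand) and TRMT61B chr2:28870260-28870559 (- strand). Capitals mark matches on either strand to the GC box GGGCGG, the CCAAT box CCAAT, the ETS core CCGGAAG or the E-box CACGTG, none of which contains another.
NSUN4: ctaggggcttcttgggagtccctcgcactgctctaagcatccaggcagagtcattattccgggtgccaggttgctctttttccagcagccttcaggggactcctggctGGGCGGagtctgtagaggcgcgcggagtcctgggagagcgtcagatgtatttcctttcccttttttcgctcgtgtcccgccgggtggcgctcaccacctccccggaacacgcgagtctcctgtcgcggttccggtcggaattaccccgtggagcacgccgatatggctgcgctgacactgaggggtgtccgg
METTL25B: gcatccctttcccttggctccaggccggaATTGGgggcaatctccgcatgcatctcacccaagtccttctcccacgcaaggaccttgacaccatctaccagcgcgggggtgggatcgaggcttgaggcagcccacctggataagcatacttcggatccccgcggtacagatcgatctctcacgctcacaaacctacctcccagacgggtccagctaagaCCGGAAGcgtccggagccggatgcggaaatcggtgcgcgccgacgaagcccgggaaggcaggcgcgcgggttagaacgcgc
TRMT13: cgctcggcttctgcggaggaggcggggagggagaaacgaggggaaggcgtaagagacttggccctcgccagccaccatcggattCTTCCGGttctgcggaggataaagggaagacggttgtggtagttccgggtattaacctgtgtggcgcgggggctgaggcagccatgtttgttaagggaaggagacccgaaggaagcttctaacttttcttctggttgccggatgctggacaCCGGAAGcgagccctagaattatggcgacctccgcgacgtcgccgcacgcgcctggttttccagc
TRMT61B: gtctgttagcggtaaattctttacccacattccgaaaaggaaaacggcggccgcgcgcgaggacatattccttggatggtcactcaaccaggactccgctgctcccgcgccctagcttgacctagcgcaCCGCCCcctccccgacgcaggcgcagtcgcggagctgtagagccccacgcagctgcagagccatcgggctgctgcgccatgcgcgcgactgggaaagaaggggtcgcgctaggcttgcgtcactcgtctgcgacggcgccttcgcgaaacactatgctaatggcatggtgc

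These 4 windows differ in what they hold. NSUN4 and TRMT61B each have 1 GC box and no ETS core, TRMT13 has 2 ETS cores, and METTL25B has 1 CCAAT box and 1 ETS core. Over 1 start for each of the 33 members with a promoter, the one the sequence table lists first, 13 (39.4%) held the ETS core, against 10.7% of 27305 RefSeq promoters and 14.9% of 14544 promoters of tested genes. Of those 13, METTL3, METTL5, METTL25B, TRMT11 and TRMT13 passed as lower in at least 1 knockdown. The others were METTL6, METTL14, NSUN3, NSUN5, TRMT6, TRMT10C, TRMT61A and TRMT112, which passed in neither. Of the 18 genes with a promoter that passed as lower in at least 1 knockdown, 5 (27.8%) held the ETS core. The GC box was in 21 of the 33 (63.6%; 60.3% of tested genes), the CCAAT box in 14 (42.4%; 36%) and the E-box in 3 (9.09%; 9.1%). A match is a run of letters and not a measured binding site.

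The array holds several probe sets for some of these genes, and they did not always move together. Of the genes called in the FAM60A experiment, 10 had further probe sets above the level filter; at least 1 of these passed in the same direction for 6 genes and in the opposite direction for 1. Of 8 such genes called in the SDS3 experiment, 6 had one passing in the same direction and 0 in the opposite. NSUN4 fell on all 3 of its measured probe sets in SDS3 siRNA cells (-0.85, -0.64 and -0.49), but in FAM60A siRNA cells the other 2 stood at 0.05 and 0.17. METTL21A fell on 235931_at in both experiments (-0.42 and -0.62), whereas 1553743_at rose by 0.43 ± 0.0677 in FAM60A siRNA cells (adjusted p = 0.00116 over all probe sets) and stood at -0.09 in SDS3 siRNA cells. METTL3 on 242111_at fell by 0.42 in FAM60A siRNA cells, and 213653_at stood at 0.04 there. METTL8 on its other probe sets stood at -0.03 and 0.15 in FAM60A siRNA cells and at -0.20 and -0.15 in SDS3 siRNA cells. METTL26 in FAM60A siRNA cells rose on 1554466_a_at by 0.42 (adjusted p = 0.00684). Its remaining probe sets stood there at 0.14, 0.00, -0.04 and -0.04 and did not pass. METTL5 on its dim second probe set stood at -0.05 and 0.00. TRMT2B on 1554279_a_at, nearly as bright as the probe set used (mean 7.57 against 7.68), stood at -0.06 in FAM60A siRNA cells (adjusted p = 0.594). In SDS3 siRNA cells 1554279_a_at stood at -0.08. TRMT5 fell on its second probe set by 0.30 and 0.45. TRMT1L on 233750_s_at fell by 0.21 in FAM60A siRNA cells (adjusted p = 0.0259) and stood at -0.18 in SDS3 siRNA cells (0.121). On 220992_s_at TRMT1L stood at -0.03 and 0.05. METTL6, which passed in neither experiment on its brightest probe set, rose on the dim 232102_at by 0.85 ± 0.0771 and 0.50 ± 0.0765 (adjusted p = 3.35e-05 and 0.00204). Other genes without a call on the probe set used also had one that passed: METTL14 fell on 227601_at by 0.20 in SDS3 siRNA cells (adjusted p = 0.0356), TRMT61A on 1554317_s_at by 0.27 in FAM60A siRNA cells (0.00839), METTL15 on 1562830_at by 0.33 in SDS3 siRNA cells (0.0332) and METTL13 on 206468_s_at by 0.24 in FAM60A siRNA cells (0.0119). NSUN3 rose by 0.38 in SDS3 siRNA cells on 222886_at (0.00585), which reached log2 5 on 3 of 12 arrays. When all probe sets of a gene were averaged, METTL21A still fell (-0.19 and -0.50), whereas METTL8 in FAM60A siRNA cells (-0.09, adjusted p = 0.178), METTL26 there (0.11, 0.134) and TRMT13 in SDS3 siRNA cells (-0.10, 0.355) did not pass. That average takes in a TRMT13 probe set under log2 5 on all 12 arrays, and the average for NSUN4 (0.02 in FAM60A siRNA cells) takes in another such one. When probe sets of shared sequence were left out for genes with another, METTL4 stood at -0.09 in SDS3 siRNA cells (adjusted p = 0.388). METTL3 (0.04), METTL5 (-0.05) and METTL8 (-0.03) then did not pass in FAM60A siRNA cells. Genes with only such probe sets, among them TRMT61B, TRMT11, NSUN2 and TRMT1L, stayed on them and were not tested in this way. TRMT61B and METTL25B have 1 probe set each.

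**Figure D5:**
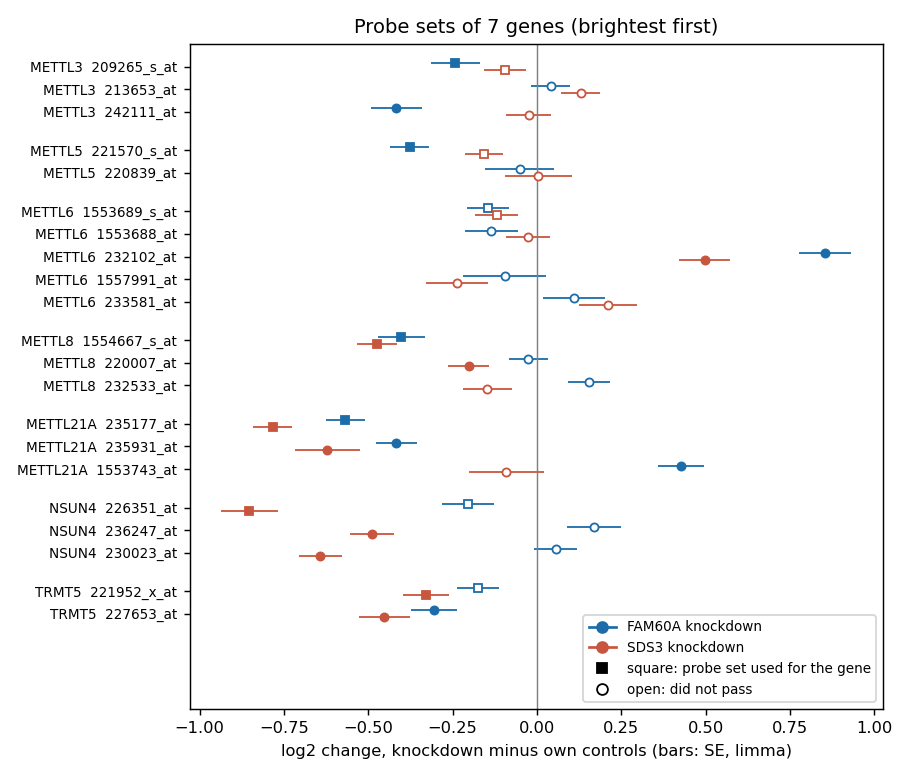
Each row is 1 probe set of METTL3, METTL5, METTL6, METTL8, METTL21A, NSUN4 or TRMT5, the brightest first, with its log2 change and SE (limma) in FAM60A (blue) and SDS3 (red) siRNA cells; squares mark the probe set used for the gene and filled symbols passed an adjusted p of 0.05 computed over all probe sets, which is stricter than the fit over genes. The NSUN4 probe sets lie together in the SDS3 experiment, while those of METTL21A and METTL6 split in the FAM60A experiment.

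Other enzymes of the same pathways were read from lists of textbook members, and their counts stand against 19.2% higher and 17.6% lower among all genes after FAM60A siRNA, and 15.8% and 18.8% after SDS3 siRNA. Of 6 partners in the N6-methyladenosine writer complex, 2 rose in both experiments: RBM15B, which recruits the writer to RNA (0.82 ± 0.0687 and 0.87 ± 0.0638; adjusted p = 5.64e-06 and 1.94e-05), and ZC3H13 (0.23 and 0.32). WTAP, the scaffold, fell by 0.18 in FAM60A siRNA cells (adjusted p = 0.0281). Of 9 tested erasers and readers of the mark, 1 rose and 4 fell after FAM60A siRNA, and 3 rose and 3 fell after SDS3 siRNA. The reader IGF2BP1 fell most (-1.22 ± 0.0576 and -0.96 ± 0.0499; adjusted p = 1.08e-07 and 3.81e-06), the demethylase FTO fell by 0.37 and 0.31, and IGF2BP3 fell by 0.30 and 0.37. YTHDF3, another reader, rose by 0.50 in SDS3 siRNA cells and stood at 0.23 in FAM60A siRNA cells (adjusted p = 0.0543).

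Among 9 tested enzymes for caps, small nuclear and messenger RNA, CMTR2, a cap 2′-O-methyltransferase, fell by 1.17 ± 0.111 in FAM60A siRNA cells (adjusted p = 1.45e-05) and stood at -0.16 in SDS3 siRNA cells; in all 1 rose and 3 fell after FAM60A siRNA and 1 rose and 0 fell after SDS3 siRNA. Of 13 other ribosomal RNA methyltransferases 6 (46.2%) fell and 1 rose after FAM60A siRNA, and 4 (30.8%) fell and 2 rose after SDS3 siRNA. EMG1, a factor of small subunit assembly, fell by 0.48 and 1.22, DIMT1 fell by 0.77 in FAM60A siRNA cells, MRM2, a mitochondrial enzyme, fell by 0.56 and 0.20, BUD23, which acts on 18S ribosomal RNA, fell by 0.52 and 0.27, and TFB1M rose by 0.72 and 0.38. Of 52 other tested enzymes of transfer RNA modification, 22 fell in each experiment (42.3%, against 17.6% and 18.8% of all genes), and 9 (17.3%) and 7 (13.5%) rose. Those with the largest changes included THG1L, which adds a guanosine to histidine transfer RNA and rose by 1.63 ± 0.0991 and 2.05 ± 0.0574 (adjusted p = 5.64e-07 and 5.65e-07), and FTSJ1, a 2′-O-methyltransferase that rose by 1.29 and 0.91. TRIT1, the isopentenyl transferase, fell by 1.23 ± 0.0547 in FAM60A siRNA cells (adjusted p = 7.93e-08) and stood at -0.04 in SDS3 siRNA cells. PUS7 rose by 0.38 and 0.73.

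Of 11 tested protein arginine methyltransferases, 2 (18.2%) rose and 3 (27.3%) fell in each experiment, near the shares of all genes. CARM1 rose by 0.60 and 0.46, PRMT3 fell by 0.42 in FAM60A siRNA cells, and PRMT2 fell by 0.41 in SDS3 siRNA cells. Of 10 other tested enzymes for non-histone proteins, 4 rose and 2 fell after FAM60A siRNA and 2 rose and 3 fell after SDS3 siRNA, ICMT rising by 0.34 and 0.46 and LCMT1 falling by 0.38 in SDS3 siRNA cells. Of 14 tested genes that supply the methyl donor, 1 rose and 3 fell after FAM60A siRNA and 0 rose and 4 fell after SDS3 siRNA. MTRR, which keeps methionine synthase active, fell by 0.38 and 0.80, and AHCYL1, a relative of S-adenosylhomocysteine hydrolase, fell by 0.47 and 0.37.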

How the data were processed

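RNA of 12 A549 samples was labelled from 1 ug of total RNA and hybridised to a 1-colour array of 54675 probe sets. The deposited table gives linear intensity per probe set, and the submitters' processing notes name RMA. Neither its version nor whether the 12 arrays were normalized together is given in those notes. The design had assumed log2 values, so log2 was taken. RMA removes a change shared by most transcripts, and the number of arrays limits the precision. Probe sets were named from the platform annotation with symbols updated through Entrez IDs and RefSeq: 41097 have 1 symbol, 1801 several and 11777 none. Each gene was read from its probe set with the highest mean over 12 arrays, and kept at a log2 signal of 5 or more on at least 3 arrays. Each knockdown was tested against its own 3 controls, with 6 arrays per fit, in limma 3.58.1 (R 4.3.3; lmFit, eBayes, Benjamini-Hochberg over 18621 genes, two-sided), and the difference between knockdowns as a contrast in a 12-array fit. The code was tested on simulated data. The group of genes and the lists were chosen with earlier results of these data known. Genes named: every member once, values on every array for METTL3, METTL14, METTL1, NSUN2, TRMT112, the 6 largest passing changes per knockdown and the 4 largest passing differences, and up to 3 genes per list and knockdown; other names were chosen after values were seen. Promoter sequences are from RefSeq (GRCh38.p14), where 33 of the 42 genes matched. Alternatives covered filters, probe set choice, scaling, the model and leaving out each array.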

Additional observations from a re-analysis of the deposited data

Results flagged for a closer look

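Of the 42 genes, 7 differed between the knockdowns in a test of the difference itself (SDS3 change minus FAM60A change, limma, 12 arrays). Knockdown and experiment cannot be told apart in that test. NSUN4 (-0.65), METTL25B (-0.40), METTL21A (-0.21) and METTL4 (-0.20) were lower after SDS3 siRNA, and TRMT13 (0.30), TRMT1L (0.26) and METTL5 (0.22) were higher. NSUN4, METTL21A, TRMT13 and METTL5 passed as lower in both knockdowns on the probe sets used, and on those calls the difference is one of size. The other measured probe sets of NSUN4 stood at 0.05 and 0.17 in FAM60A siRNA cells and fell by 0.64 and 0.49 in SDS3 siRNA cells. When arrays were left out 1 at a time, the METTL5 call after SDS3 siRNA held in 0 of 6 fits. The NSUN4 call after FAM60A siRNA held in 1 of 6. Scaling changes which of the 7 pass, as given in the report.

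A signal also appeared on probe sets that the gene-level comparisons do not use because they report more than 1 gene. The probe set 226744_at, annotated to METTL16 and LOC284009, rose by 0.91 ± 0.0617 in FAM60A siRNA cells and by 0.94 ± 0.0598 in SDS3 siRNA cells (adjusted p = 5.86e-06 and 2.27e-05, limma over all probe sets), and 220797_at of the same pair rose by 0.74 and 0.60. These exceed every rise on the probe sets used for the 42 genes. The other 2 probe sets of the pair, 1557399_at and 238931_at, stood at 0.15 and 0.05 in FAM60A siRNA cells and at 0.02 and 0.25 in SDS3 siRNA cells and did not pass. Which of the annotated genes gives the signal was not tested.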

How the results depend on the processing

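The fits that left out 1 array each gave 1 to 2 genes higher and 9 to 14 lower after FAM60A siRNA, 1 to 2 higher and 11 to 14 lower after SDS3 siRNA, and 1 to 4 higher and 2 to 5 lower for the difference; 10 of 16 FAM60A calls, 11 of 16 SDS3 calls and 3 of 7 difference calls passed in all of them. At an adjusted p of 0.01 the FAM60A calls were 1 higher and 7 lower and the difference 0 higher and 2 lower. Of all genes, 14.4% were then higher and 11.4% lower after FAM60A siRNA, and 5.11% and 9.98% for the difference. A 1.5-fold minimum left 0 higher and 1 lower (FAM60A), 0 and 2 (SDS3) and 0 and 1 (difference). Of all genes it left 4.81% higher and 2.53% lower (FAM60A), 3.24% and 3.72% (SDS3) and 1.82% and 4.08% (difference). Hybridization scaling left 7 lower after FAM60A siRNA, and 0 higher and 8 lower for the difference. Poly-A scaling gave 0 higher and 8 lower (FAM60A), 0 and 35 (SDS3) and 0 and 2 (difference), with the METTL5 difference at -0.00292. Under poly-A scaling 497 of all genes passed as higher and 9121 as lower after SDS3 siRNA, against 2941 and 3498, and 1349 and 2251 after FAM60A siRNA, against 3577 and 3278; hybridization scaling gave 1676 and 4360 after SDS3 siRNA and 3541 and 1713 after FAM60A siRNA. Averaging all probe sets of a gene gave 1 higher after FAM60A siRNA, 2 after SDS3 siRNA and 1 for the difference, with NSUN4 in FAM60A siRNA cells at 0.0196. Without probe sets of shared sequence, left out only where a gene had another, 1 gene was higher for the difference. METTL3 then stood at 0.0409 and NSUN3 at -0.203 in FAM60A siRNA cells, and METTL5 at 0.00379 in SDS3 siRNA cells. Array weights gave 7 lower for the difference. The cause of these changes was not tested.

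With the replicate number as a block, 12 of 16 FAM60A calls and 14 of 16 SDS3 calls passed, and the difference had 1 higher and 2 lower. Deviations of same-numbered samples correlated at -0.118 to 0.0343, and those of differently numbered samples at -0.0782 to 0.153. No sign of pairing by number was seen, but so few samples cannot exclude it. Small changes near the threshold, and dim second probe sets, limit what 3 arrays per group can show.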

Other observations

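The probe sets shared by METTL2A and METTL2B, a pair of near-identical 3-methylcytidine enzymes of transfer RNA, were not used above. The bright 225253_s_at fell by 0.58 ± 0.0587 and 0.37 ± 0.0584 (adjusted p = 6.56e-05 and 0.00234, limma over all probe sets), and 221079_s_at fell by 0.50 in FAM60A siRNA cells and stood at -0.04 in SDS3 siRNA cells. The probe set of METTL2B alone stood at 0.05 and -0.12 and passed in neither, with all SDS3 knockdown arrays below the controls. The probe sets shared by NSUN5P1 and NSUN5P2 stood at 0.02 and 0.01 in FAM60A siRNA cells and at -0.09 and -0.11 in SDS3 siRNA cells.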
